A study of Homo sapiens with 4 samples.

Results

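The 10 genes described here, KLF2, KLF3, KLF4, KLF5, KLF6, KLF7, KLF9, KLF10, KLF11 and KLF13, encode Krüppel-like factors and were taken by symbol from 25609 genes in the deposited expression table. RNA was sequenced from HK-2, an immortalised human cell line derived from the kidney's proximal tubule, with 2 control and 2 TGF-β1 libraries. TGF-β1 is the cytokine most closely tied to matrix deposition and loss of epithelial character in the injured tubule. All 4 libraries carry the genotype label WT, and per the labels the cells were starved of serum for 24 h and received 4-thiouridine, a uridine analogue that marks new RNA, at 100 μM for 20 h before harvest. The treated group had TGF-β1 at 20 ng/mL for 24 h, and the control group is labelled control. The labels print the same treatment text, cytokine included, for both groups, so the controls were assigned from their titles and treatment label. No label says that replicates came from separate cultures, and the spread behind each p-value is that of the libraries alone and may be technical.

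Krüppel-like factors are zinc-finger transcription factors that bind GC-rich and CACCC sequences, the sites also used by the related SP factors. Their fingers are much alike, and their other domains decide which partners they bring to DNA. KLF2, KLF4, KLF5, KLF6 and KLF7 are mainly known as activators that can bind acetyltransferases, KLF3 recruits the corepressor CtBP, and KLF9, KLF10, KLF11 and KLF13 bind the SIN3A corepressor. KLF10 and KLF11 were first described as TGF-β-inducible early genes, and KLF4, KLF5 and KLF6 have been studied in kidney injury.

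All 10 genes were in the table, and 9 of them, all but KLF9, reached the mean of 0.5 RPKM over the 4 libraries that was required for testing. RPKM counts reads per kilobase of a gene's exons and relative to a size set for the library, so levels can be set side by side between genes. The size behind these values was not the plain total of reads, as given below. Of the 9, KLF7 and KLF10 rose and KLF5 and KLF11 fell by limma, with a threshold of 0.05 on p values adjusted over all 16590 tested genes. Of all tested genes 9.12% were called, 6.12% higher and 3.0% lower. The KLF genes were chosen with earlier results of these data known, so their counts beside these shares are description only. The median log2 fold change was -0.12 over the 9 genes and 0.03 over all tested genes. The control and TGF-β1 values did not overlap for 8 of the 9, 3 higher and 5 lower, an arrangement found in 54.1% of all tested genes (29.5% higher and 24.6% lower). KLF genes that passed the test therefore moved both ways, by a factor of 4.22 at most.

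**Figure D1:**
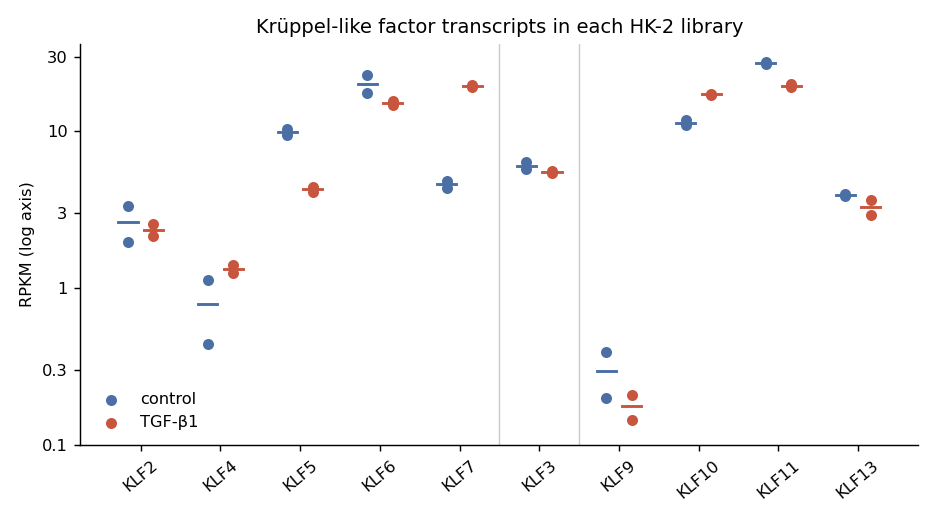
RPKM of the 10 KLF genes in each library, on a log axis, with controls in blue and TGF-β1 in red; points are libraries, short bars are means of 2, and grey lines separate the activator, CtBP-binding and SIN3A-binding groups. The KLF7 points of the 2 groups lie farthest apart, at 4.35 and 4.86 RPKM against 19.1 and 19.7 RPKM.

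KLF7 (ENSG00000118263.14, hg38 chromosome 2, 207074137 to 207167267, minus strand), known for its part in neuronal growth, gave the largest change of the 9. It measured 4.86 and 4.35 RPKM in control replicates 1 and 2 and 19.1 and 19.7 RPKM in TGF-β1 replicates 1 and 2. Both TGF-β1 libraries were far above both controls, and the replicates of each group lay close together. The group means were 4.60 ± 0.36 and 19.4 ± 0.41 RPKM (SD, n = 2 per group), a 4.22-fold rise. On the scale of log2(RPKM + 0.5), used for all log2 fold changes here, KLF7 differed by 1.97 (standard error 0.10, 95% interval 1.70 to 2.23, adjusted p = 0.00205, limma). The values rest on 152, 189, 736 and 859 reads, in the same order, and the call held under each of the 14 alternative settings tried, with log2 values from 1.79 to 2.09.

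A short transcript annotated inside a KLF7 intron on the same strand, KLF7-IT1 (chromosome 2, 207120884 to 207122044), had 0 and 1 reads in the controls against 3 and 5 in the treated libraries. Its difference did not pass (log2 1.25, standard error 0.30, adjusted p = 0.0703, limma). Reads of this transcript cannot be told from those of unspliced KLF7 RNA. No other gene in the table overlaps KLF7.

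KLF5 (ENSG00000102554.13, chromosome 13, 73054976 to 73077542, plus strand), a factor of proliferating epithelia, moved in the opposite direction. Its levels were 9.43 and 10.3 RPKM in the controls and 4.11 and 4.45 RPKM with TGF-β1. Each treated library was at under 5 RPKM and each control above 9 RPKM. The mean fell from 9.87 ± 0.62 to 4.28 ± 0.24 RPKM, so that the control level was 2.31 times the TGF-β1 level (log2 -1.12, standard error 0.12, 95% interval -1.42 to -0.81, adjusted p = 0.00947, limma). Reads numbered 124, 188, 66 and 81. The fall was called under all 14 alternatives, with log2 values from -1.28 to -1.04.

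KLF12, a CtBP-binding relative, is the next KLF gene along chromosome 13, 609 kb beyond KLF5. It measured 1.31 and 1.08 RPKM in the controls and 1.31 and 1.08 RPKM with TGF-β1 (log2 0.00, 95% interval -0.60 to 0.60). The 2 groups of KLF12 values thus covered nearly the same range. KLF7 and KLF11 share chromosome 2 and were called in opposite directions.

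KLF6 (ENSG00000067082.14, chromosome 10, 3775996 to 3785281, minus strand), an early-response factor of injured tissue, was the second most abundant of the 10 in controls. It gave 17.5 and 22.7 RPKM in the controls and 15.7 and 14.8 RPKM with TGF-β1. The treated values lay below both controls, but control replicate 2 stood well above control replicate 1. The mean was 20.1 ± 3.7 RPKM in controls against 15.2 ± 0.64 RPKM in the treated libraries, and the difference did not pass (log2 -0.38, standard error 0.14, 95% interval -0.73 to -0.02, adjusted p = 0.181, limma). It passed when the recovered reads (363, 655, 400 and 427) were tested by limma's voom (log2 -0.40, adjusted p = 0.00628), a setting that called 20.2% of all tested genes, and when control replicate 1 was left out (log2 -0.56, adjusted p = 0.0484).

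KLF4 and KLF2, close relatives that also act in blood vessel endothelium, were expressed at low levels. KLF4 (ENSG00000136826.14, chromosome 9, 107484852 to 107490482), a differentiation and reprogramming factor, measured 0.443 and 1.13 RPKM in the controls and 1.41 and 1.25 RPKM with TGF-β1. These values are 5, 19, 21 and 21 reads, and for the lowest the exact 95% Poisson interval was 1.62 to 11.7 reads, counting error only. The controls differed from each other by more than control replicate 2 differed from either treated library, and no difference between the groups was detectable (log2 0.56, 95% interval -0.31 to 1.43, adjusted p = 0.393, limma). The KLF4 value was 0.16 without control replicate 1 and 0.96 without control replicate 2. KLF2 (ENSG00000127528.5, chromosome 19, 16324817 to 16327874) gave 1.97 and 3.32 RPKM in the controls and 2.56 and 2.16 RPKM with TGF-β1. Both treated values fell between the controls, on 13, 31, 21 and 20 reads (log2 -0.11, 95% interval -0.79 to 0.57, adjusted p = 0.853, limma). Without control replicate 2 the sign of the KLF2 difference turned (log2 0.21).

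KLF3 (ENSG00000109787.12, chromosome 4, 38664196 to 38701042), the CtBP-recruiting repressor, was expressed at a middle level. It measured 5.74 and 6.34 RPKM in the controls and 5.60 and 5.45 RPKM with TGF-β1. The treated values were just below the controls, and the difference did not pass (log2 -0.12, 95% interval -0.43 to 0.20, adjusted p = 0.617, limma). It was -0.18 without control replicate 1 and -0.05 without control replicate 2. KLF3-AS1, which overlaps the start of KLF3 on the other strand, had 1 read in all 4 libraries together.

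**Figure D2:**
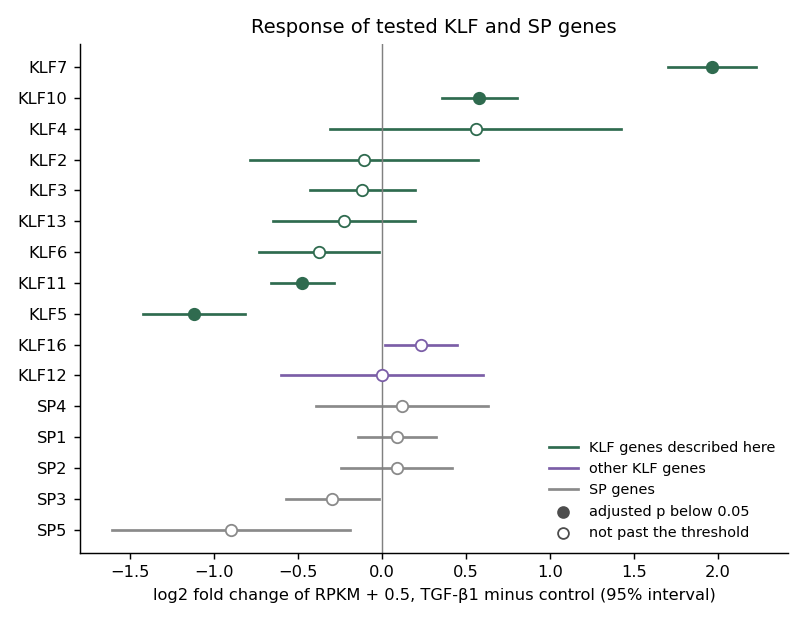
Log2 fold change, TGF-β1 minus control, on the scale of log2(RPKM + 0.5), with its 95% interval, for the 9 tested KLF genes (green), 2 other tested KLF genes (purple) and 5 tested SP genes (grey); filled points passed an adjusted p of 0.05. KLF7 and KLF10 are filled above 0, KLF5 and KLF11 are filled below 0, and no purple or grey point is filled.

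The TGF-β-inducible early genes KLF10 and KLF11 were called in opposite directions at 24 h of TGF-β1. That is the only time sampled, so early induction of either gene was not measured. KLF10 (ENSG00000155090.14, chromosome 8, 102648779 to 102655902, minus strand), known as TIEG1, measured 10.9 and 11.8 RPKM in the controls and 17.1 and 17.4 RPKM with TGF-β1. The groups were well apart, with means of 11.4 ± 0.63 and 17.2 ± 0.19 RPKM. This was a 1.51-fold rise (log2 0.58, standard error 0.09, 95% interval 0.36 to 0.80, adjusted p = 0.0227, limma), on 148, 222, 284 and 327 reads. KLF10 no longer passed when control replicate 1 (adjusted p = 0.0556), TGF-β1 replicate 1 (0.0928) or TGF-β1 replicate 2 (0.111) was left out, or when the variance trend was dropped (0.0945), while the log2 value stayed between 0.40 and 0.63 under the 14 alternatives.

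KLF11 (ENSG00000172059.10, chromosome 2, 10042849 to 10054836, plus strand), known as TIEG2, was the most abundant of the 10 genes in controls. It gave 27.7 and 26.9 RPKM in the controls and 19.9 and 19.1 RPKM with TGF-β1. The replicates lay close together in each group, and the groups were well apart. The mean fell from 27.3 ± 0.58 to 19.5 ± 0.58 RPKM, with the control level at 1.40 times the treated level (log2 -0.47, standard error 0.07, 95% interval -0.66 to -0.29, adjusted p = 0.0238, limma), on 431, 580, 380 and 413 reads. The same omissions ended the KLF11 call, with adjusted p of 0.0645 when control replicate 1, 0.0820 when TGF-β1 replicate 1 and 0.117 when TGF-β1 replicate 2 was left out and 0.121 when the variance trend was dropped, and the log2 value ranged from -0.65 to -0.44. An antisense transcript at the end of KLF11, ENSG00000271787, held 0, 3, 0 and 2 reads.

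The other SIN3A-binding members changed less or were scarcely detected. KLF13 (ENSG00000169926.10, chromosome 15, 31326855 to 31435665), first described in T lymphocytes, measured 3.96 and 3.88 RPKM in the controls and 3.64 and 2.95 RPKM with TGF-β1. Both treated values were the lower ones, by a margin within the spread of the treated group (log2 -0.23, 95% interval -0.65 to 0.20, adjusted p = 0.473, limma). The KLF13 value was -0.36 with TGF-β1 replicate 1 left out and -0.09 with TGF-β1 replicate 2 left out. KLF9 (ENSG00000119138.4, chromosome 9, 70384597 to 70414624), a gene induced by glucocorticoid and thyroid hormone, stood at 0.199, 0.391, 0.209 and 0.144 RPKM, which is 3, 9, 4 and 3 reads. It was below the filter, its groups overlapped, and with every gene tested its difference did not pass (log2 -0.22, adjusted p = 0.567, limma).

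**Figure D3:**
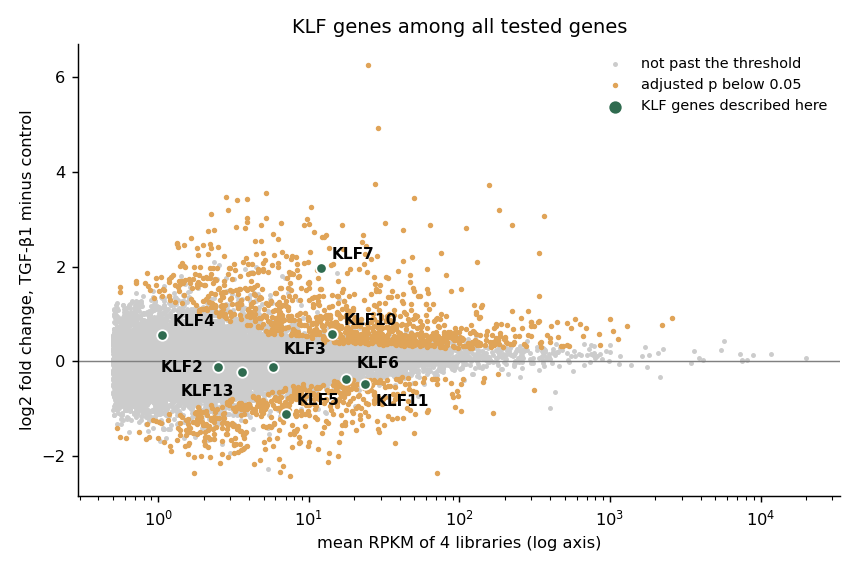
Each point is a gene, by its mean RPKM over 4 libraries (log axis) and its log2 fold change, TGF-β1 minus control; orange points passed an adjusted p of 0.05 and green points are the 9 tested KLF genes. KLF7 at 1.97 and KLF5 at -1.12 lie among orange points, KLF10 and KLF11 lie near the inner border of the orange points, and KLF4, KLF2, KLF13 and KLF3 lie among grey points.

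The order of the 10 genes by level differed between the groups. In controls KLF11 led at 27.3 RPKM, followed by KLF6 at 20.1, KLF10 at 11.4, KLF5 at 9.87, KLF3 at 6.04 and KLF7 at 4.60. In the TGF-β1 group KLF11 at 19.5 RPKM and KLF7 at 19.4 RPKM overlapped, with KLF10 at 17.2, KLF6 at 15.2, KLF3 at 5.52 and KLF5 at 4.28 after them. KLF13, KLF2, KLF4 and KLF9 held the last 4 places in both groups. Apart from KLF11 and KLF7 in the treated group, no neighbours in either order overlapped, with 2 libraries a group. The summed level of the 10 genes was 82.7 and 91.2 RPKM in the controls and 89.4 and 87.4 RPKM with TGF-β1, so the groups overlapped in their sum. KLF7 made up 5.87% and 4.77% of that sum in the controls against 21.4% and 22.6% in the treated libraries, KLF5 11.4% and 11.3% against 4.60% and 5.09%, and KLF11 33.5% and 29.5% against 22.3% and 21.9%.

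Ratios of genes within a library do not depend on how libraries were scaled to each other. The KLF7 level was 0.515 and 0.423 times the KLF5 level in the controls and 4.66 and 4.43 times in the TGF-β1 libraries. KLF10 stood at 0.395 and 0.439 times KLF11 in the controls and at 0.857 and 0.908 times in the treated libraries. Neither ratio overlapped between the groups. Each ratio sets a gene called higher over a gene called lower, so this separation restates those calls and is no further evidence. An exact permutation test of 2 against 2 libraries cannot give a two-sided p under 0.333. In bulk RNA, fewer cells that express a gene and less of its RNA per cell cannot be told apart.

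**Figure D4:**
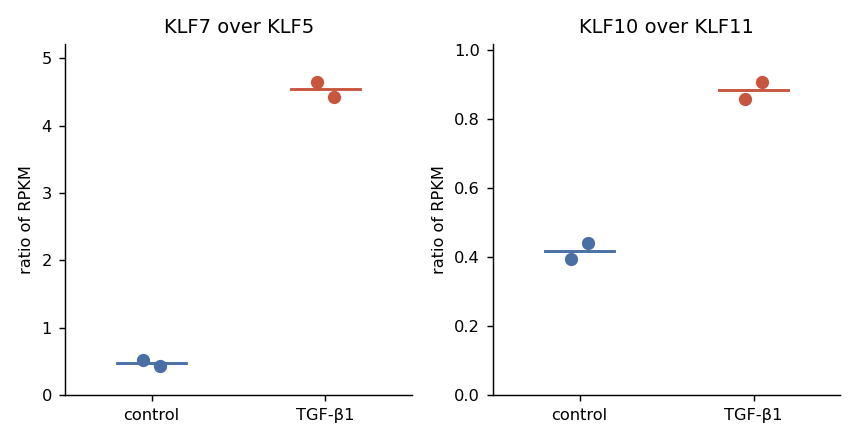
Ratio of RPKM within each library for KLF7 over KLF5 (left) and KLF10 over KLF11 (right), with points for libraries and bars for means of 2, on axes that start at 0. The left ratio is 0.423 to 0.515 in controls and 4.43 to 4.66 with TGF-β1, and the right ratio is 0.395 to 0.439 and 0.857 to 0.908.

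Among the 8 other KLF genes 5 were in the table and 2, KLF12 and KLF16, could be tested, with 0 calls. KLF16, a SIN3A-binding relative, was more abundant than any of the 10 genes, at 32.2 and 28.8 RPKM in the controls and 36.9 and 34.8 RPKM with TGF-β1. The treated values were above both controls, and the difference did not pass (log2 0.23, standard error 0.08, adjusted p = 0.173, unadjusted p = 0.0396, limma), and KLF16 was the 1 of these 2 genes with an unadjusted p below 0.05, with 0 calls by voom on recovered reads. KLF1, KLF8 and KLF14 had at most 5 reads in any library, and KLF15, KLF17 and KLF18 were not analysed here. Of the SP factors, which bind the same GC boxes, 5 were tested and 0 were called by limma on RPKM. SP5, a target of Wnt signalling, came closest, at 2.36 and 2.53 RPKM in the controls and 1.46 and 0.773 RPKM with TGF-β1 (log2 -0.90, adjusted p = 0.124, unadjusted p = 0.0223). Its log2 value was -1.21 with TGF-β1 replicate 1 left out and -0.59 with TGF-β1 replicate 2 left out. SP3 was the other with an unadjusted p below 0.05 (0.0403), and both SP5 and SP3 passed by voom on the recovered reads. SP1, the ubiquitous member, measured 15.1 and 14.3 RPKM against 15.0 and 16.4 RPKM.

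Of 12 corepressors and coactivators of KLF proteins 11 were tested, and 2 rose and 0 fell, with a median log2 fold change of 0.08. Over all tested genes 6.12% were called higher and 3.0% lower. All gene lists here, the KLF and SP genes included, were chosen with earlier results of these data known, so their counts are description only. FHL3, a LIM-only protein that binds KLF3, went from 15.2 and 13.6 RPKM to 50.5 and 51.6 RPKM, a 3.53-fold rise (log2 1.79, standard error 0.08, adjusted p = 0.00143, limma). HDAC1, the histone deacetylase, went from 42.3 and 39.3 to 51.0 and 55.9 RPKM (log2 0.39, adjusted p = 0.0496), a call lost under 11 of the 14 alternatives, each omission of 1 library among them (adjusted p from 0.0667 to 0.197). SIN3A measured 7.92 and 7.05 RPKM in the controls and 7.33 and 8.21 RPKM with TGF-β1, and CTBP1 measured 35.1 and 31.2 against 35.8 and 36.0 RPKM, with neither past the test.

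Upstream of KLF2 and KLF4 lies the ERK5 kinase, which acts through MEF2 factors. Of 8 genes of that route 7 were tested, 1 rose and 0 fell (6.12% and 3.0% over all tested genes), with a median log2 fold change of 0.39. The gene that rose was MAPK7, which encodes ERK5, from 8.49 and 9.40 RPKM to 13.6 and 14.4 RPKM (log2 0.62, adjusted p = 0.0270, limma). MAPK7 missed the threshold when control replicate 1 (adjusted p = 0.0641), TGF-β1 replicate 1 (0.0875) or TGF-β1 replicate 2 (0.133) was left out, and when the variance trend was dropped (0.0938). KLF2 and KLF4 themselves did not pass, as given above. Of 9 ubiquitin ligases that act on KLF proteins, all tested, 1 rose and 0 fell (median 0.03), against the same 6.12% and 3.0%. SMURF1 targets KLF2 as well as components of the TGF-β receptor pathway. It went from 12.4 and 12.4 RPKM to 24.9 and 25.2 RPKM, a 2.02-fold rise (log2 0.99, adjusted p = 0.00407, limma). SMURF2 went from 1.80 and 2.98 RPKM to 4.61 and 5.20 RPKM, 2.05-fold by the means. It did not pass (log2 0.93, adjusted p = 0.0844, limma) but was called by voom on the recovered reads (log2 1.03, adjusted p = 8.99e-05).

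Of 8 genes of the glucocorticoid response, a hormone pathway that acts on KLF9, 7 were tested and 4 rose and 0 fell (median log2 0.42). Of all tested genes 6.12% were called higher and 3.0% lower. SGK1, a kinase that controls sodium transport, went from 2.97 and 3.23 RPKM to 8.05 and 7.92 RPKM (log2 1.24, adjusted p = 0.00871, limma). NR3C1, the glucocorticoid receptor gene, went from 6.32 and 6.55 RPKM to 11.7 and 11.0 RPKM (log2 0.77, adjusted p = 0.0162). It missed the threshold with TGF-β1 replicate 1 or TGF-β1 replicate 2 left out, and without the variance trend (adjusted p = 0.0649, limma). TSC22D3 (log2 0.62, adjusted p = 0.0381) and PER1 (log2 0.42, adjusted p = 0.0460) also passed, and these calls were lost under 8 and 10 of the 14 alternatives. TSC22D3 missed the threshold with control replicate 1 (0.0685), TGF-β1 replicate 1 (0.131) or TGF-β1 replicate 2 (0.0992) left out, and PER1 with any library left out (0.0550 to 0.174). FKBP5, a chaperone gene induced by the receptor, had the lower values with TGF-β1, 1.96 and 2.05 RPKM against 1.51 and 1.21 RPKM. It did not pass (log2 -0.44, adjusted p = 0.287, limma) but was called lower by voom on the recovered reads (log2 -0.58, adjusted p = 0.0272). KLF9 had no more than 4 reads in either treated library.

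Of 15 genes reported as targets of KLF factors 12 were tested. Against 6.12% higher and 3.0% lower over all tested genes, 5 rose and 0 fell (median log2 0.41). They were SMAD7, the inhibitory SMAD (log2 2.05, adjusted p = 0.00160, limma), CCND1, the cyclin D1 gene (1.93, 0.00280), PDGFA, a growth factor gene reported as a KLF5 target (1.78, 0.00343), CCNB1, the cyclin B1 gene (0.45, 0.0249), and TGFBR1, a receptor gene reported as a KLF6 target (0.86, 0.0458). PDGFA rose from 3.23 and 3.87 to 13.2 and 13.5 RPKM while KLF5 fell. CDKN1A, a cell cycle inhibitor reported as a target of KLF4 and KLF6, measured 57.4 and 50.1 RPKM in the controls and 50.3 and 44.7 RPKM with TGF-β1, and its groups overlapped. CCNB1 lost its call when control replicate 1, TGF-β1 replicate 1 or TGF-β1 replicate 2 was left out, and TGFBR1 when any library was. In all, CCNB1 kept its call under 9 of the 14 alternatives, with log2 values from 0.21 to 0.53 and adjusted p up to 0.150 (limma). TGFBR1 was lost under 8 of the 14 alternatives in all, also without a filter (0.0893), without the variance trend (0.0690), with total-read scaling (0.0744) and with the replicate number as a block (0.0794). Most of these genes have many other regulators, and binding of KLF proteins was not measured in these libraries.

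KLF genes are often counted with immediate-early genes, so 9 others of that kind were listed. Of these 7 were tested, 3 rose and 0 fell (median log2 0.03), against 6.12% higher and 3.0% lower over all tested genes. The treated libraries were taken at 24 h only, so an early response was not measured. EGR2, a zinc-finger factor, went from 4.60 and 4.24 to 17.8 and 18.6 RPKM, a 4.11-fold rise (log2 1.93, adjusted p = 0.00206, limma). IER3 went from 48.4 and 56.6 to 149 and 155 RPKM (log2 1.53, adjusted p = 0.00263), and IER2 from 18.5 and 19.1 to 36.4 and 34.6 RPKM (log2 0.90, adjusted p = 0.00453). IER2 missed the threshold when the variance trend was dropped (adjusted p = 0.0534). EGR1, the best known of the family, measured 2.21 and 4.44 RPKM in the controls and 1.57 and 2.33 RPKM with TGF-β1, with overlapping groups (adjusted p = 0.377).

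Library size and cell identity touch all of these values. The recovered reads ranged from 3347312 to 4817828 in the controls and from 4657382 to 5474001 in the TGF-β1 libraries. The library size implied by the deposited RPKM was 1.01 and 0.976 times those totals in control replicates 1 and 2. It was 0.892 and 0.860 times in TGF-β1 replicates 1 and 2, so the groups did not overlap. Scaling by those totals in place of the authors' scaling shifted the median difference over the whole table by -0.15 on the log2 scale. KLF7, KLF10, KLF5 and KLF11 kept their directions and calls there, KLF10 narrowly (log2 0.40, adjusted p = 0.0482, limma). KLF11 then stood at log2 -0.65 (adjusted p = 0.0133, limma). All 5 markers of renal epithelium were expressed, with summed levels of 277 to 298 RPKM in controls against 369 to 409 RPKM in the treated libraries. The sum covers both directions: KRT8 (log2 1.19, adjusted p = 0.00335, limma), CDH2 (1.17, 0.0178) and KRT18 (0.43, 0.0429) rose, while PAX8, a transcription factor of the renal lineage (-1.50, 0.00198), and EPCAM, an epithelial adhesion molecule (-0.89, 0.0157), fell. The tubule markers CUBN, SLC34A1 and AQP1 held 18 reads in all 4 libraries together, so differentiated proximal tubule markers were nearly absent. The 2 endothelial markers in the table had 0 reads, and the fibroblast list summed to 12.3 to 13.0 RPKM in controls against 6.83 to 8.86 RPKM in the treated libraries, nearly all of it LUM, while DCN and COL3A1 stayed near 0. The 2 leukocyte markers in the table, CD14 and CD68, summed to 1.33 to 1.85 RPKM in controls against 0.974 to 1.89 RPKM in the treated libraries. The part of LUM and of the epithelial markers in the KLF differences was not tested.

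**Figure D5:**
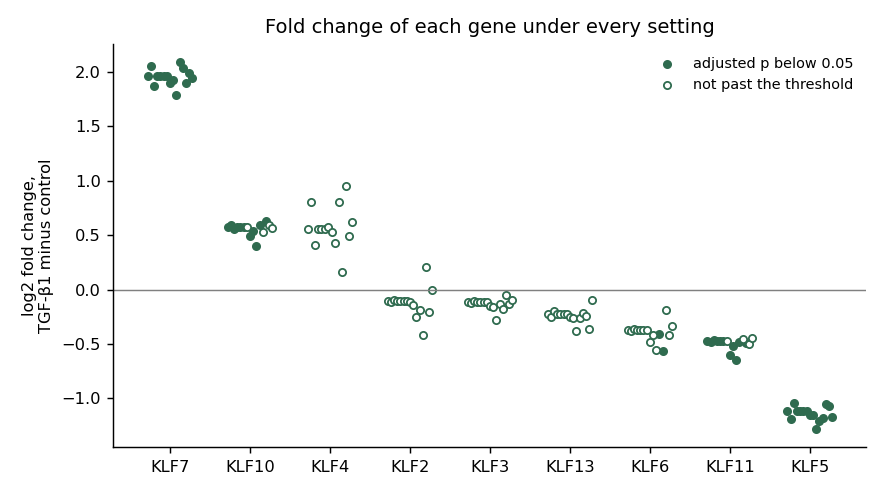
Log2 fold change, TGF-β1 minus control, of the 9 tested KLF genes under the reported setting and up to 14 alternatives, each a point; filled points passed an adjusted p of 0.05. KLF7 and KLF5 are filled throughout, KLF10 and KLF11 are in part open, KLF6 is mostly open but in part filled, and KLF2 crosses 0.

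Sequence before the annotated starts of 3 genes that were called is shown because KLF and SP proteins bind GC boxes, which KLF genes themselves can carry. The set of RefSeq start windows used here held 13 for 8 of the 10 genes (GRCh38.p14). It had none for KLF3 or KLF10, so KLF10, although called, is not shown. The 250 bases before each start were searched on both strands for the GC box GGGCGG, the CACCC box CACCC, the SMAD-binding element CAGAC and the AP-1 element TGANTCA. Adjoining GC boxes may share bases. A GC box was found in 8 of the 13 windows, against 42.6% of 35116 windows of all genes. CACCC was found in 6 (54.7% of all windows), CAGAC in 3 (38.0%) and TGANTCA in 0 (6.57%). For each gene the window with the most GC boxes was taken among those with at least 100 bases in a row outside GENCODE 29 exons, and that run is printed, from chr2:207166857-207166993 on the minus strand for KLF7, chr13:73054726-73054975 on the plus strand for KLF5 and chr2:10043971-10044174 on the plus strand for KLF11. Capitals mark GC boxes and CACCC boxes on either strand.
KLF7: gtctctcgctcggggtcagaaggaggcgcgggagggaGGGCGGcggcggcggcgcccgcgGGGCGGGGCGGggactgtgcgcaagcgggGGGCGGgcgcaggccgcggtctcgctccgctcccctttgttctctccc
KLF5: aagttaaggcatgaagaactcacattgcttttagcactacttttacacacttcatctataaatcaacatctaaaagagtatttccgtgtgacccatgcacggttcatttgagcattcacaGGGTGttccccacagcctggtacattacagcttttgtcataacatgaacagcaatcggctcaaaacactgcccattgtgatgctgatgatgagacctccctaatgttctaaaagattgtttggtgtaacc
KLF11: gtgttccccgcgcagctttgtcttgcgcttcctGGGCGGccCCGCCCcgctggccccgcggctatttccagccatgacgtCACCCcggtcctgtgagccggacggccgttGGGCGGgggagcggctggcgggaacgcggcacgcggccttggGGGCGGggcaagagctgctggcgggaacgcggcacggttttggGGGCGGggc
The KLF7 stretch holds 4 GC boxes and 0 CACCC boxes, the KLF11 stretch 5 and 1, and the KLF5 stretch 0 and 1. KLF7, which rose, and KLF11, which fell, both carry several GC boxes here, in windows chosen for having the most. The KLF7 windows before bases 207134137, 207165948 and 207167246 held 0 GC boxes each. The other KLF11 window, before base 10043829, held 2. The KLF5 gene has a second annotated start at base 73059005, whose 250-base window is 70.8% G and C, against 40.8% for the printed one, and holds 2 GC boxes. The counts per gene do not show which start the cells used, and a match describes the letters in the window only.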

How the data were processed

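The authors deposited 1 table of RPKM values for 25609 genes and 4 libraries. Build hg38 and the tools STAR 2.7.1a, bcl2fastq 2.20.0.422 and DESeq2 come from the submitters' processing notes, without roles. The annotation release, strand use in counting and RPKM tool were not given in the sources used here. Versioned Ensembl identifiers were paired with symbols for 25312 genes. Multiplied by GENCODE 29 exon length, each library's RPKM fell on whole reads plus 0.5, times a constant, for 100% of 23853 genes with the same identifier version (tolerance 0.01 read). For 1402 others the length was inferred from the values.

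RPKM was tested as deposited with limma 3.58.1 in R 4.3.3 (lmFit, eBayes with a variance trend) on log2(RPKM + 0.5), for 16590 genes with a mean of at least 0.5 RPKM. Adjusted p values (Benjamini-Hochberg) cover all tested genes, and 0.05 was the threshold. Fold values are ratios of mean RPKM. The fit was run on simulated reads. Its check on recovered changes covered only large changes in well covered genes, not changes as small as those of KLF10 and KLF11. The KLF genes and all lists were chosen with earlier results of these data known. Named beside the 10 genes are, for each list, the 3 called genes of smallest p (or, with none called, the gene of smallest p), genes that overlap a member, and genes chosen after their values were seen: PER1, CCNB1, TGFBR1, KLF12, SP1, SP3, SIN3A, CTBP1, SMURF2, CDKN1A, FKBP5, LGALS3, MYC and EGR1. Cell type markers come from their own lists. The 14 alternatives are given in the closing section.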

Additional observations from a re-analysis of the deposited data

How the results depend on the processing

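The direction of KLF3, KLF4, KLF5, KLF6, KLF7, KLF10, KLF11 and KLF13 was the same under every alternative that tested them, and KLF2 turned without control replicate 2. KLF4 could not be tested at a mean of at least 2 RPKM. Leaving out 1 library gave log2 values of -0.42 to 0.21 for KLF2, -0.18 to -0.05 for KLF3, 0.16 to 0.96 for KLF4, -0.36 to -0.09 for KLF13, -1.21 to -0.59 for SP5, -0.56 to -0.19 for KLF6, 0.53 to 0.63 for KLF10 and -0.50 to -0.44 for KLF11, with 1 to 2 KLF genes called higher and 1 to 2 lower. In those fits the lone library of a group is assumed to vary like the other group. Without the variance trend 1 KLF gene was called higher (KLF7) and 1 lower (KLF5), while KLF10 (log2 0.58) and KLF11 (-0.47) missed the threshold. By voom on recovered reads KLF6 passed (-0.40), which made 3 lower. Why these calls changed was not tested.

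Across all tested genes 1513 were called, 1015 higher and 498 lower, and 574 to 1138 (395 to 842 higher, 179 to 297 lower) with 1 library left out. The counts were 424 (280 and 144) without the trend, 3349 (2000 and 1349) by voom, 977 (297 of them lower) without a filter, and 654 higher against 889 lower with scaling by total reads. Higher genes made up 67.1% of the calls as reported, 62.0% with median-of-ratios scaling, 50.4% after quantile normalization and 42.4% with scaling by total reads. No label says whether same-numbered libraries belong together. Their deviations were hardly correlated across genes (r = 0.03), but counting noise at this depth can hide a pairing, so it was not decided. With the replicate block 1344 genes were called and the 4 KLF calls held, while 1 corepressor or coactivator and 2 glucocorticoid-responsive genes passed. HDAC1, TSC22D3, PER1 and TGFBR1 lost their calls with the block, and the reported KLF target LGALS3 gained one. LGALS3 did not pass as reported (log2 0.56, adjusted p = 0.0705, limma) but was also called by voom on recovered reads (log2 0.56, adjusted p = 0.00121).

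Counts in the other lists were small and moved with the setting. Corepressors and coactivators went from 2 to 1 with pseudocount 0.1, without a filter, without the trend, under quantile, median-of-ratios and total-read scaling, and with any library left out. Kinases and MEF2 factors went from 1 to 2 at a mean of at least 2 RPKM and by voom, to 0 without the trend, and to between 0 and 1 with a library left out. Ubiquitin ligases went from 1 to 2 by voom and to between 1 and 2 with a library left out. Glucocorticoid-responsive genes went from 4 to 2 without a filter, after quantile normalization and with total-read scaling, to 1 without the trend, to between 1 and 3 with a library left out, and to 5 by voom, where FKBP5 was called lower. Reported KLF targets went from 5 to 3 without the trend, and to 4 without a filter, after quantile normalization and with total-read scaling. Their count went to 6 at a mean of at least 2 RPKM and by voom, and fell in some fits with a library left out. SP factors went from 0 to 2 by voom. Immediate-early genes went from 3 to 2 without the trend, where IER2 was lost, and to 4 after quantile normalization, where MYC was called lower. Depth limits KLF2, KLF4 and KLF9, which had 3 to 31 reads per library.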
